A study of Caenorhabditis elegans with 3 samples.

Results

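F-box, MATH and BATH domain genes were taken from the deposited expression tables by name, as every gene whose symbol begins with fbxa-, fbxb-, fbxc-, math- or bath-. The rule found 174 of the 10168 genes listed in either table: 61 fbxa, 66 fbxb, 16 math and 31 bath genes, and 0 fbxc genes. Of them, 151 had values for dcr-1 RNAi and 171 for drsh-1 RNAi, with 148 in both. The measurements are polyA RNA sequencing of the nematode Caenorhabditis elegans, strain fem-1, as young adults fed RNAi bacteria, in 1 library with dcr-1 RNAi, 1 library with drsh-1 RNAi and 1 mock library, all labelled 2.5 days. dcr-1 encodes Dicer, the enzyme that makes microRNAs and siRNAs from double-stranded precursors, and drsh-1 encodes Drosha, which releases microRNA precursors in the nucleus. All 3 groups carry the fem-1 background, chosen per the labels because loss of dcr-1 makes worms sterile and the controls were to be sterile too. The fem-1 gene is needed for sperm and male development, and which fem-1 allele was used is not given in the sources used here.

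F-box proteins are the exchangeable part of SCF ubiquitin ligases. They bind a Skp1-related adaptor, which the skr genes encode in C. elegans, on the cullin CUL-1, and hold the protein that is to be marked with ubiquitin. BTB proteins do the same for ligases built on CUL-3, and many of them carry a MATH domain as well. The bath genes encode such proteins with both a BTB and a MATH domain, while the math genes encode MATH domain proteins named without a BTB domain. These families are greatly expanded in Caenorhabditis, often in tandem arrays, and the substrates of most members are not known.

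The tables give FPKM (sequenced fragments per kilobase of a gene's transcript, relative to the size of the library), and list a gene only if it is above 2 FPKM in both libraries of the table. A gene below that level is missing, not measured at 0. Differences are given as log2 ratios of (FPKM + 1), which understate the ratio of low genes. With 1 library per group no difference has a replicate check and no test could be made, so that 2-fold is used here as a rule of size only. The depth of the libraries is unknown. Both comparisons against mock use the same mock library, and a high or low value of a gene in it enters both. Near-identical members can share reads, so the value of any single one is uncertain. The targeted gene dcr-1 had 23.8 FPKM in dcr-1 RNAi, against 36.8 FPKM in mock. The targeted gene drsh-1 had 20.9 FPKM in drsh-1 RNAi, against 32.0 FPKM in mock (26.2 FPKM in the mock column beside dcr-1 RNAi).

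The families were not listed equally. RefSeq annotates 483 genes with these prefixes in the WBcel235 assembly, pseudogenes included, and 173 of the 174 listed members were found there by name. Of the annotated genes, 72.1% of the bath family and 58.4% of the fbxb family were listed, but 30.6% of the math family and 27.5% of the fbxa family. All 56 annotated fbxc genes were missing from both tables. Of the listed members, 11 are annotated as pseudogenes, among them math-27.

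The families also differed in what the rule did not use. Chromosome II held 78 members, V held 41 and III held 29, where 203, 112 and 85 of the 483 annotated genes lie. The listed members thus lay much as the annotated families do. The fbxb, math and bath genes lay mostly on chromosome II, with 37, 14 and 23 listed members there, whereas 26 fbxa genes lay on V and 20 on III. The fbxb genes had a median of 2 exons, against 4 for fbxa genes, 5 for math genes, 5 for bath genes and 6 for all listed genes matched to the annotation. Their median coding length of 948 bases was near that of fbxa (951) and bath (939) genes and below that of math genes (1320) and of all listed genes (1089).

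Most members were weakly expressed. In mock, 121 of 174 (69.5%) were under 10 FPKM, against 29.7% of all listed genes. Over genes with equal mock values, the median level of the 28 bath genes was 22.2 FPKM in dcr-1 RNAi, 20.2 FPKM in drsh-1 RNAi and 20.7 FPKM in mock. The 56 fbxa genes had medians of 6.16, 5.92 and 6.18 FPKM in dcr-1 RNAi, drsh-1 RNAi and mock, and the 13 math genes 4.72, 4.88 and 5.44 FPKM. In these families the medians of the 3 libraries lay close together. The 50 fbxb genes had a median of 3.61 FPKM in dcr-1 RNAi, 7.71 FPKM in drsh-1 RNAi and 5.77 FPKM in mock, and were the family in which the libraries stood farthest apart. Their summed level was 238 FPKM in dcr-1 RNAi, 492 FPKM in drsh-1 RNAi and 390 FPKM in mock.

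**Figure D1:**
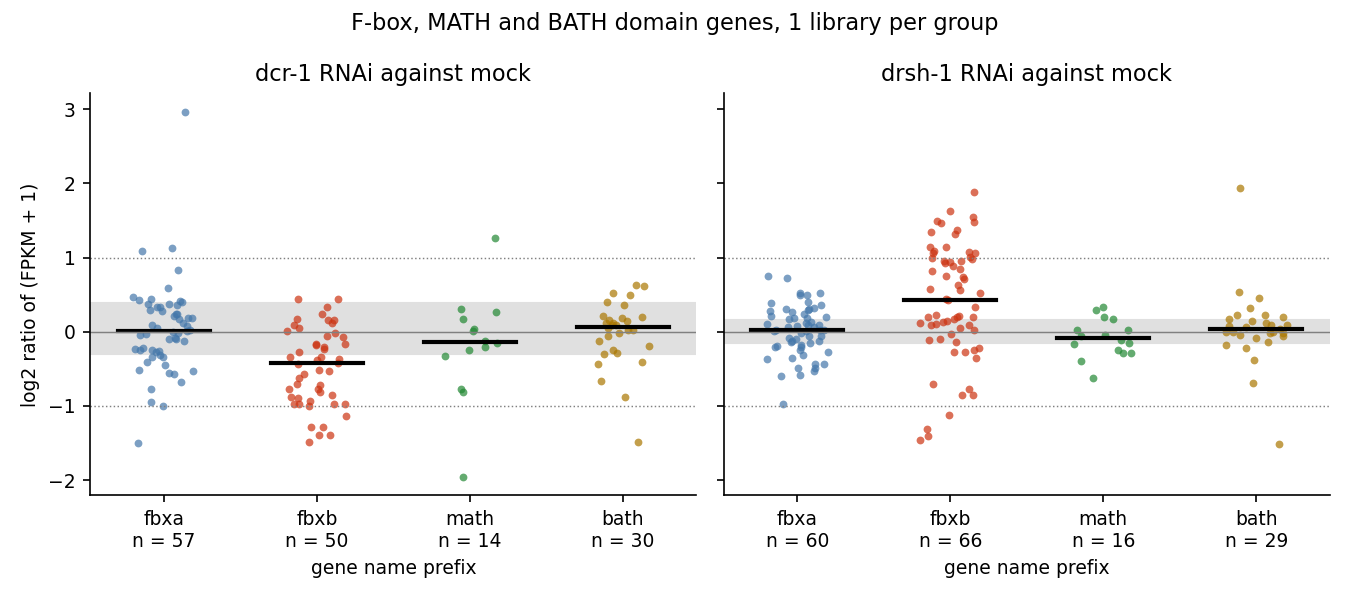
Log2 ratio of (FPKM + 1) for every listed fbxa, fbxb, math and bath gene in dcr-1 RNAi against mock (left) and drsh-1 RNAi against mock (right), 1 point per gene. Black bars are family medians and the grey band spans the quartiles of all listed genes. The fbxb genes lie mostly below 0 in the left panel (median -0.43) and mostly above 0 in the right one (0.43), and dotted lines mark 2-fold.

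The dcr-1 RNAi library was first compared with the mock library. Of 151 listed members, 4 were higher than mock by 2-fold or more and 9 were lower by as much, where 6.71% and 6.53% of all 9631 listed genes were. After centring the ratios on the median of all listed genes, or scaling to a common upper quartile, 4 were higher (2.65%) and 16 lower (10.6%). Of all listed genes, 5.75% were higher and 7.22% lower after centring, and 5.69% and 7.34% with the common upper quartile. As deposited, the share of lower members was near that of all genes and the share of higher members below it. Below mock were 86 of 151 members, against 44.5% of all listed genes. Of the 9 members that were at least 2-fold lower, 6 were fbxb genes, and 0 fbxb genes were at least 2-fold higher. Among 50 fbxb genes 39 were below mock, with a median log2 ratio of -0.43, against 0.06 over all listed genes. The size differed between levels under and over 5 FPKM in mock. The fbxb median was -0.88 at 5 to 10 FPKM in mock and -0.89 at 10 FPKM or more. The 27 fbxb genes at 5 FPKM or more in mock had a median of -0.88, with 25 below mock and 6 at least 2-fold lower, where 7.48% of all listed genes of that level were. The 23 at 2 to 5 FPKM had a median of -0.07, against 0.25 over all listed genes of that level, and there the 2 FPKM limit leaves no room for a 2-fold lower value. A further 16 fbxb genes, at 2.02 to 3.68 FPKM in mock, were listed for drsh-1 RNAi only. They are missing from this median, so the limit also bears on the difference between the levels. The 57 fbxa genes had a median of 0.01, the 14 math genes -0.14 and the 30 bath genes 0.07.

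The fbxb genes that were lower in dcr-1 RNAi included the highest-expressed one. fbxb-66 was at 18.5 FPKM in dcr-1 RNAi, against 53.5 FPKM in mock (log2 ratio -1.49). fbxb-45 was at 3.82 FPKM in dcr-1 RNAi, against 11.7 FPKM in mock (-1.39), and fbxb-88 at 4.68 FPKM in dcr-1 RNAi, against 13.9 FPKM in mock (-1.39). fbxb-1, which overlaps the annotated receptor gene str-81, was at 3.05 FPKM in dcr-1 RNAi, against 8.89 FPKM in mock (-1.29). The other members of this group, fbxb-18 (-1.28) and fbxb-19 (-1.14), overlap each other, and whether the authors' counting used strand is not given in the sources used here.

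Beyond the fbxb family, 1 fbxa, 1 bath and 1 math gene were at least 2-fold lower. fbxa-1 was at 8.47 FPKM in dcr-1 RNAi, against 25.8 FPKM in mock (-1.50). bath-10 was at 7.22 FPKM in dcr-1 RNAi, against 22.1 FPKM in mock (-1.49). math-27, annotated as a pseudogene, was at 4.86 FPKM in dcr-1 RNAi, against 21.8 FPKM in the mock column of that table (-1.96). Its mock value in the drsh-1 table was 35.5 FPKM, the only member whose 2 mock values differed, so the tables may cover different transcripts of it. fbxa-11 lay just inside 2-fold, at 3.06 FPKM in dcr-1 RNAi, against 7.11 FPKM in mock (-0.998).

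Members that were higher in dcr-1 RNAi were few and came from the fbxa and math families. fbxa-72 had the largest ratio of any member, at 26.7 FPKM in dcr-1 RNAi, against 2.54 FPKM in mock (2.96). fbxa-79 was at 9.12 FPKM in dcr-1 RNAi, against 3.78 FPKM in mock (1.08). math-26 was at 11.1 FPKM in dcr-1 RNAi, against 4.04 FPKM in mock (1.27), and overlaps math-3, which was at 13.5 FPKM in dcr-1 RNAi, against 10.8 FPKM in mock (0.30). The remaining gene, fbxa-219, was listed in the dcr-1 table only, at 5.67 FPKM in dcr-1 RNAi, against 2.05 FPKM in mock (1.13). All 4 were under 5 FPKM in mock, and with only members at 8 FPKM or more in mock the count of higher members was 0. Of all listed genes at 10 FPKM or more in mock, 4.99% were at least 2-fold higher.

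Apart from bath-10, the 30 listed BATH genes were within 2-fold of mock in dcr-1 RNAi. bath-1 was at 23.3 FPKM in dcr-1 RNAi, against 14.8 FPKM in mock (0.62), and bath-5 at 50.9 FPKM in dcr-1 RNAi, against 35.2 FPKM in mock (0.52). Smaller ratios belonged to bath-27, which overlaps lido-14 (0.49), and to the fbxa genes fbxa-156 (0.46) and fbxa-145 (0.44). These 5 genes were the members with the highest ratios after those above 2-fold, among members with a mean of at least 5 FPKM over the 2 libraries.

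Among the most abundant members, fbxa-215 was at 258 FPKM in dcr-1 RNAi, 275 FPKM in drsh-1 RNAi and 263 FPKM in mock, well above every other fbxa gene. bath-42 was at 145 FPKM in dcr-1 RNAi, 116 FPKM in drsh-1 RNAi and 109.8 FPKM in mock. bath-41, which overlaps F37A4.3, was at 115 FPKM in dcr-1 RNAi, 150.5 FPKM in drsh-1 RNAi and 132 FPKM in mock. bath-42 was thus above bath-41 in dcr-1 RNAi and below it in the other 2 libraries. bath-30 (94.9, 91.7 and 89.1 FPKM in dcr-1 RNAi, drsh-1 RNAi and mock) and bath-15 (48.6, 45.9 and 42.4 FPKM) differed from mock by at most 0.19 on the log2 scale. fbxa-101 was at 56.5 FPKM in dcr-1 RNAi, 43.8 FPKM in drsh-1 RNAi and 43.5 FPKM in mock, and fbxa-210 at 60.3, 59.7 and 51.9 FPKM in the same libraries. math-33, the ortholog of the human deubiquitinase USP7 and the most abundant math gene, was at 43.4 FPKM in dcr-1 RNAi, 71.5 FPKM in drsh-1 RNAi and 74.7 FPKM in mock, and overlaps scb-1. Its log2 ratio against mock was -0.77 with dcr-1 RNAi, and -0.06 with drsh-1 RNAi.

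The drsh-1 RNAi library was compared with the same mock library. Of 171 listed members 17 were at least 2-fold higher in drsh-1 RNAi and 5 at least 2-fold lower, where 1.91% and 1.59% of all 9996 listed genes were. Above mock were 105 members, against 50.4% of all listed genes. The higher members were fbxb genes with 1 exception: 16 of 66 fbxb genes were at least 2-fold higher, against 1 of the 105 members of the other families. The fbxb family had a median log2 ratio of 0.43, with 49 of 66 genes above mock, while the medians were 0.03 for fbxa, -0.09 for math, 0.04 for bath and 0.00 for all listed genes. With only members at 8 FPKM or more in mock, 1 member was at least 2-fold higher and the fbxb median was -0.27. At 10 FPKM or more in mock, 1 of 12 fbxb genes and 0 of 41 other members were at least 2-fold higher, where 0.83% of all listed genes were.

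The drsh-1 RNAi ratios also differed between levels under and over 5 FPKM in mock. Of the 39 fbxb genes at 2 to 5 FPKM in mock, 38 were above mock in drsh-1 RNAi and 13 at least 2-fold higher. Their median was 0.74, against 0.09 over all listed genes of that level, of which 5.99% were at least 2-fold higher. Of the 27 fbxb genes at 5 FPKM or more in mock, 11 were above mock, 3 at least 2-fold higher and 4 as far below, with a median of -0.13. Of all listed genes of that level, 1.23% were at least 2-fold higher and 1.86% as far below. A gene under 5 FPKM in mock cannot be listed as 2-fold lower, because its value would be under 2 FPKM. Low genes were also more often higher in general: 4.66% of the 2809 listed genes under 10 FPKM in mock were at least 2-fold higher, against 15 of the 54 fbxb genes under 10 FPKM.

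Among fbxb genes, fbxb-103 had the highest ratio in drsh-1 RNAi. It was at 28.05 FPKM in drsh-1 RNAi, against 6.89 FPKM in mock (1.88), and overlaps bcmo-2, which was at 25.8 FPKM in drsh-1 RNAi and 25.7 FPKM in mock. fbxb-92 was at 13.8 FPKM in drsh-1 RNAi, against 3.77 FPKM in mock (1.63), and fbxb-84 at 14.4 FPKM in drsh-1 RNAi, against 4.30 FPKM in mock (1.54). In dcr-1 RNAi these genes were at 7.59, 3.78 and 4.66 FPKM, near their mock values.

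Further fbxb genes followed with ratios between 1 and 1.5 on the log2 scale. fbxb-17 was at 19.3 FPKM in drsh-1 RNAi, against 6.20 FPKM in mock (1.497), and fbxb-31 at 7.88 FPKM in drsh-1 RNAi, against 2.19 FPKM in mock (1.48). fbxb-95 was at 8.67 FPKM in drsh-1 RNAi, against 2.82 FPKM in mock (1.34). fbxb-44 (1.32), fbxb-119 (1.14), fbxb-20 (1.14), fbxb-71 (1.08), fbxb-90 (1.08), fbxb-24 (1.07) and fbxb-83 (1.06) belong to the same group, of which fbxb-20, fbxb-24 and fbxb-83 overlap other annotated genes. The exception outside the family was bath-31, which encodes a BTB and MATH protein, at 16.1 FPKM in drsh-1 RNAi, against 3.45 FPKM in mock (1.94), the highest ratio of any member in this comparison. It was at 5.87 FPKM in dcr-1 RNAi. Over the 16 higher fbxb genes the median level was 9.17 FPKM in drsh-1 RNAi, against 3.57 FPKM in mock. The genes were picked by this gap, so it describes them and is no separate result. The 13 of them that were also listed in the dcr-1 table had a median of 3.44 FPKM in dcr-1 RNAi. That median is over fewer genes than the mock median, so the 2 cannot be compared directly.

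The lower members in drsh-1 RNAi were 4 fbxb genes and bath-10. bath-10 was at 7.12 FPKM in drsh-1 RNAi, against 22.1 FPKM in mock (-1.51), and fbxb-66 at 18.7 FPKM in drsh-1 RNAi, against 53.5 FPKM in mock (-1.47). These were the members at least 2-fold apart from mock in both RNAi libraries, and in both genes the 2 RNAi libraries were close to each other. fbxb-101 was at 3.31 FPKM in drsh-1 RNAi, against 10.4 FPKM in mock (-1.40), and fbxb-102 at 3.47 FPKM in drsh-1 RNAi, against 10.1 FPKM in mock (-1.32). fbxb-77 was at 3.45 FPKM in drsh-1 RNAi, against 8.73 FPKM in mock (-1.13). Their dcr-1 RNAi levels of 5.96, 5.17 and 4.22 FPKM were below mock as well, by less than 2-fold. In fbxb-1 (-0.86), fbxb-45 (-0.86) and fbxb-88 (-0.78), which were at least 2-fold lower in dcr-1 RNAi, drsh-1 RNAi was below mock by less than 2-fold.

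In the fbxa and math families all ratios in drsh-1 RNAi were under 2-fold. fbxa-60 was at 30.1 FPKM in drsh-1 RNAi, against 21.1 FPKM in mock (0.49), and fbxa-153 at 8.84 FPKM in drsh-1 RNAi, against 13.9 FPKM in mock (-0.60). math-27 was at 22.7 FPKM in drsh-1 RNAi, against 35.5 FPKM in mock (-0.62), and math-14 at 13.5 FPKM in drsh-1 RNAi, against 10.5 FPKM in mock (0.33). fbxa-1, far below mock in dcr-1 RNAi, was at 26.3 FPKM in drsh-1 RNAi, against 25.8 FPKM in mock (0.03). fbxa-72 was at 4.96 FPKM in drsh-1 RNAi, against 2.54 FPKM in mock (0.75).

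**Figure D2:**
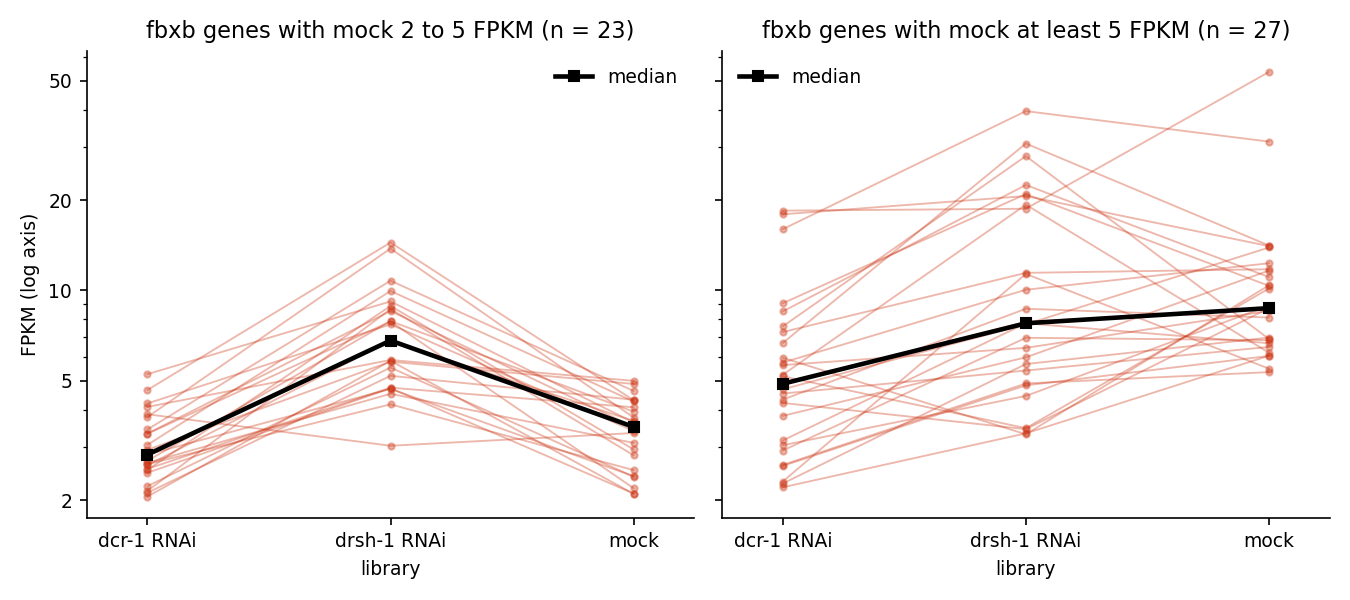
FPKM of fbxb genes in the 3 libraries, 1 line per gene, on a log axis, for the 23 genes at 2 to 5 FPKM in mock and the 27 genes at 5 FPKM or more in mock that have equal mock values in both tables. Black squares are medians, at 2.84, 6.81 and 3.51 FPKM for the lower-expressed genes and 4.88, 7.77 and 8.73 FPKM for the higher-expressed ones, in dcr-1 RNAi, drsh-1 RNAi and mock.

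dcr-1 RNAi was also set against drsh-1 RNAi directly, over genes with equal mock values in both tables. Of 147 members 24 were at least 2-fold lower in dcr-1 RNAi and 2 at least 2-fold higher, where 5.78% and 4.29% of all 9043 such genes were. Lower in dcr-1 RNAi were 97 members, against 44.5% of all genes. Of the 24 lower members 22 were fbxb genes, and 46 of 50 fbxb genes were below drsh-1 RNAi, with a median log2 ratio of -0.76. The medians of the other families were -0.03 for fbxa, -0.04 for math and -0.04 for bath, and 0.06 for all genes compared. With only members at 8 FPKM or more in mock, 5 were at least 2-fold lower and 0 higher, and the fbxb median was -0.59. At 10 FPKM or more in mock, 4 of 12 fbxb genes and 1 of 40 other members were at least 2-fold lower. Of all genes compared at that level, 6.14% were as far lower and 3.48% as far higher.

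fbxb-90 had the lowest ratio, at 6.68 FPKM in dcr-1 RNAi, against 30.9 FPKM in drsh-1 RNAi, with 14.1 FPKM in mock (dcr-1 over drsh-1, -2.05). fbxb-33 was at 2.30 FPKM in dcr-1 RNAi, against 11.4 FPKM in drsh-1 RNAi, with 5.48 FPKM in mock (-1.90). In both genes the mock level lay between those of the RNAi libraries. fbxb-91, the most abundant fbxb gene in drsh-1 RNAi, was at 16.001 FPKM in dcr-1 RNAi, against 39.6 FPKM in drsh-1 RNAi, with 31.3 FPKM in mock (-1.26). In fbxb-103 (-1.76), fbxb-17 (-1.70) and fbxb-92 (-1.63) the dcr-1 RNAi level was near mock, and drsh-1 RNAi stood apart. fbxb-95 (-1.62) was at 2.15 FPKM in dcr-1 RNAi, against 2.82 FPKM in mock, where the 2 FPKM limit leaves little room for a lower value. The 2 lower members that were not fbxb genes were fbxa-1 (-1.53) and bath-31 (-1.31). fbxa-72 (2.21) and math-26 (1.09) were the 2 members at least 2-fold higher in dcr-1 RNAi. fbxa-79 (0.97), math-3 (0.69) and bath-36 (0.59) had the next highest ratios among members averaging at least 5 FPKM over the RNAi libraries, bath-36 with 19.1 FPKM in dcr-1 RNAi, against 12.4 FPKM in drsh-1 RNAi. fbxb-7, the fbxb gene with the highest ratio in dcr-1 RNAi against mock among those averaging at least 5 FPKM over the pair of libraries (0.33), was at 17.9 FPKM in dcr-1 RNAi, 20.6 FPKM in drsh-1 RNAi and 14.1 FPKM in mock.

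Listing in 1 table only was itself uneven. Of 66 fbxb genes 16 (24.2%) were listed for drsh-1 RNAi but not for dcr-1 RNAi, against 537 of all 10168 listed genes (5.28%). These shares are not matched for level: the median in mock was 4.17 FPKM for fbxb genes and 24.5 FPKM for all listed genes. At 2 to 5 FPKM in mock, 39 fbxb genes were listed for drsh-1 RNAi and 23 for dcr-1 RNAi, against 1436 and 1222 of all listed genes. Since the 16 fbxb genes were between 2.02 and 3.68 FPKM in mock, a value at or under 2 FPKM in dcr-1 RNAi is enough to keep them out. fbxb-22 was at 9.14 FPKM in drsh-1 RNAi, against 2.92 FPKM in mock (1.37), fbxb-42 at 7.475 FPKM in drsh-1 RNAi, against 2.07 FPKM in mock (1.46), and fbxb-81 at 7.27 FPKM in drsh-1 RNAi, against 3.11 FPKM in mock (1.01). These were the highest-expressed members of 1 table only. In the other families 4 fbxa, 2 math and 1 bath gene had values only for drsh-1 RNAi, and fbxa-219, bath-23 and bath-45 only for dcr-1 RNAi. With members missing from a table placed at 2 FPKM in that RNAi library, the fbxb median in dcr-1 RNAi was -0.38. For a gene kept out by the limit 2 FPKM is the most it can have, so lower true values could only lower this median.

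Many members are neighbours in the genome. In the RefSeq gene order 57 members lay next to another listed member, 27 of them fbxb genes, and 75 members lay in 27 uninterrupted runs of family genes with at least 2 listed members. Neighbours may share reads as well as position, and their values are given side by side. In the chromosome II run of fbxb-92, fbxb-90 and fbxb-91, the log2 ratios in drsh-1 RNAi against mock were 1.63, 1.08 and 0.33, and those in dcr-1 RNAi against mock were 0.00, -0.98 and -0.93. In that run all 3 genes were higher in drsh-1 RNAi than in dcr-1 RNAi. In the run of fbxb-43, fbxb-42 and fbxb-44, also on II, they were 0.85, 1.46 and 1.32 in drsh-1 RNAi, and -0.42 and -0.17 for fbxb-43 and fbxb-44 in dcr-1 RNAi. fbxb-26, fbxb-18 and fbxb-19 on II had ratios of -0.996, -1.28 and -1.14 in dcr-1 RNAi and 0.02, -0.25 and -0.70 in drsh-1 RNAi. Of the BATH run on II, bath-10 (-1.49) and bath-9 (-0.88) were both below mock in dcr-1 RNAi, as they were in drsh-1 RNAi (-1.51 and -0.69), while bath-23 had a ratio of 0.05 in dcr-1 RNAi and was not listed for drsh-1 RNAi. Another BATH run on II, of bath-1, bath-3 and bath-5, had ratios of 0.62, -0.02 and 0.52 in dcr-1 RNAi and 0.53, -0.13 and -0.02 in drsh-1 RNAi. Elsewhere neighbours went apart. On V, fbxb-2 had a ratio of 0.88 in drsh-1 RNAi and fbxb-1 a ratio of -0.86, and in the math run on II the ratios in dcr-1 RNAi were -1.96 for math-27, 1.27 for math-26 and 0.30 for math-3. By chromosome, 9 of 37 fbxb genes on II and 5 of 6 on III were at least 2-fold higher in drsh-1 RNAi, against 1 of 12 on V, 0 of 6 on I and 0 of 4 on IV, and the 1 listed on X was higher too (1.08). The share on II was close to that of the whole family, 16 of 66.

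The partners that these proteins work with were counted from a list. Of 29 cullin, RING and Skp1-related genes 24 were listed. In dcr-1 RNAi 3 of them were at least 2-fold lower and 0 higher, with a list median of -0.07. Of all listed genes, 6.53% were as far lower and 6.71% as far higher. cul-3, the scaffold of the ligases that use BATH proteins, was at 8.45 FPKM in dcr-1 RNAi, 49.9 FPKM in drsh-1 RNAi and 43.4 FPKM in mock, with log2 ratios of -2.23 and 0.20 against mock. cul-1, the scaffold of SCF ligases, was at 57.7 FPKM in dcr-1 RNAi, 62.1 FPKM in drsh-1 RNAi and 47.4 FPKM in mock. skr-21 was at 23.8 FPKM in dcr-1 RNAi, 25.2 FPKM in drsh-1 RNAi and 68.7 FPKM in mock, low in both RNAi libraries, and skr-19 at 16.2, 24.5 and 43.0 FPKM.

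In drsh-1 RNAi 5 of the 24 were at least 2-fold higher and 1 lower, with a list median of 0.12, and all 5 were Skp1-related genes. Of all listed genes, 1.91% were as far higher and 1.59% as far lower. skr-10 was at 122 FPKM in drsh-1 RNAi, against 33.4 FPKM in mock (1.83), and skr-9 at 75.8 FPKM in drsh-1 RNAi, against 20.8 FPKM in mock (1.81). skr-7 (1.19), skr-13 (1.14) and skr-15 (1.08) followed. In dcr-1 RNAi the same genes had ratios of 0.79 for skr-10, 0.54 for skr-9, 0.68 for skr-7, -0.25 for skr-13 and 0.67 for skr-15. Of 12 neddylation and COP9 signalosome genes, which attach and remove the ubiquitin-like NED-8 on cullins, 0 were 2-fold apart in either comparison, with medians of 0.03 for dcr-1 RNAi against mock and 0.08 for drsh-1 RNAi against mock. dcn-1, which promotes neddylation, was at 80.3 FPKM in dcr-1 RNAi, 165 FPKM in drsh-1 RNAi and 151 FPKM in mock. Of 14 F-box and BTB receptors with other names 9 were listed and 0 were 2-fold apart, with a median of -0.15 for dcr-1 RNAi against mock and of -0.00 for drsh-1 RNAi against mock. mel-26, a MATH and BTB protein that brings the microtubule-severing protein MEI-1 to CUL-3, was at 95.2 FPKM in dcr-1 RNAi, 166 FPKM in drsh-1 RNAi and 153 FPKM in mock.

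**Figure D3:**
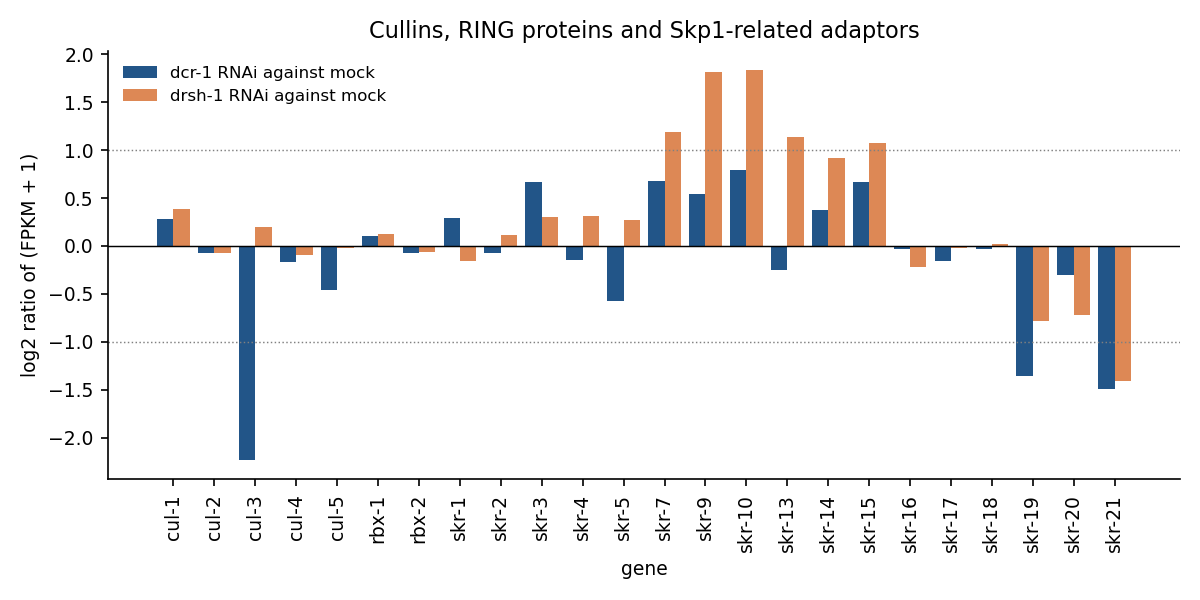
Log2 ratio of (FPKM + 1) against mock for the 24 listed cullin, RING and Skp1-related genes, with a bar for dcr-1 RNAi left of the bar for drsh-1 RNAi, and dotted lines at 2-fold. cul-3 has the lowest bar, in dcr-1 RNAi (-2.23), skr-9 and skr-10 have the highest bars in drsh-1 RNAi (1.81 and 1.83), and skr-21 is under the lower line in both (-1.49 and -1.41).

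Markers of other cell types also differed between the libraries. Of 20 early zygotic genes 7 were listed for drsh-1 RNAi, while end-1, end-3, med-1 and med-2 were not listed. All 7 were above mock there, 5 by 2-fold or more, with a median log2 ratio of 1.39. Of all listed genes, 1.91% were at least 2-fold higher, and 5.99% of those at 2 to 5 FPKM in mock. nob-1 (0.09) and elt-7 (0.13) were near mock. Apart from sdz-28 and elt-7, the listed early zygotic genes were under 5 FPKM in mock, where a 2-fold lower value cannot be listed. The 6 with equal mock values summed to 41.4 FPKM in dcr-1 RNAi, 117 FPKM in drsh-1 RNAi and 40.2 FPKM in mock. pes-10 was at 5.07, 14.3 and 2.96 FPKM, and vet-6 at 8.61, 24.96 and 4.60 FPKM, in dcr-1 RNAi, drsh-1 RNAi and mock. The fbxb genes under 5 FPKM in mock were highest in the same library, and the part of embryonic transcripts in their level was not tested. In bulk RNA, fewer cells of a type and less RNA per cell cannot be told apart. Of 12 oocyte genes 9 were listed, summing to 2619 FPKM in dcr-1 RNAi, 3102 FPKM in drsh-1 RNAi and 2722 FPKM in mock. Of these, spn-4 was at 83.4 FPKM in dcr-1 RNAi, 561 FPKM in drsh-1 RNAi and 393 FPKM in mock, and weighs on the sums. It was the 1 oocyte gene at least 2-fold lower in dcr-1 RNAi than in mock. In dcr-1 RNAi 6 of the 9 were above mock, with a list median of 0.12, and in drsh-1 RNAi 7 were, with a list median of 0.12. Of 12 sperm genes 4 were listed for dcr-1 RNAi, 1 of them at least 2-fold higher, and 3 for drsh-1 RNAi. All 8 intestine genes were listed, and in dcr-1 RNAi 3 were at least 2-fold lower and 1 higher. Of all listed genes, 6.53% were as far lower in dcr-1 RNAi and 6.71% as far higher, shares that also stand beside the oocyte and sperm counts. The 7 intestine genes with equal mock values summed to 462 FPKM in dcr-1 RNAi, 769 FPKM in drsh-1 RNAi and 1177 FPKM in mock. cpr-1 alone was at 181 FPKM in dcr-1 RNAi, 593 FPKM in drsh-1 RNAi and 1030.4 FPKM in mock, and without it the order turned round, the other 6 summing to 281, 176 and 146 FPKM in the same libraries. Of those 6, act-5 was at 146 FPKM in dcr-1 RNAi, 48.2 FPKM in drsh-1 RNAi and 24.7 FPKM in mock, and carries much of that order. Left out of these sums for its unequal mock values, cpr-6 was higher in both RNAi libraries. It was at 920 FPKM in dcr-1 RNAi, against 491 FPKM in mock, and at 727 FPKM in drsh-1 RNAi, against 493 FPKM in mock. The median of the whole intestine list was 0.24 for both RNAi libraries against mock.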

How the data were processed

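The authors deposited 2 tables without a header, whose columns hold gene names, FPKM of mock, FPKM of the RNAi library, and log2 of their ratio. Which library a column holds was taken from each table's name and from the mock values both tables share. The deposited log2 values were recovered with 1 FPKM added to each library, to within 5.0e-12. The submitters' processing notes name TopHat2 2.06, Cufflinks, Cuffdiff 2.1.1, SAMtools and CASAVA 1.8.2, with no roles. The genome build, gene annotation and scaling between libraries are not given in the sources used here. Coordinates are therefore not printed. Read counts were not analysed here, and the depth is unknown.

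Log2 ratios were recomputed from FPKM with a pseudocount of 1 FPKM (Python 3.11.15, pandas 2.3.3, numpy 2.4.6). The lowest listed values were 2.0017 and 2.0014 FPKM in the dcr-1 and drsh-1 tables. Of 9459 genes in both tables, 9043 had equal mock values (difference at most 1e-09) and 416 did not, and the direct comparison uses only the equal ones. The calculations were tested on simulated data. Genes named are, per comparison with mock, the 8 members with the highest ratios and the 8 with the lowest (5 and 5 for the direct comparison), all with 5 FPKM or more on average over the pair of libraries, the extremes and the 3 most abundant of each family, members 2-fold apart in both comparisons, the 3 highest listed in 1 table only and a few known genes (math-33, bath-42, bath-15, and fbxa-75, fbxa-158 and fbxa-182, which are not listed). The other members named are those past 2-fold and neighbours in runs, named after their values were seen. The lists were cullin, RING and Skp1-related genes, neddylation and COP9 signalosome genes, other F-box and BTB receptors, and early zygotic, oocyte, sperm and intestine markers. Members and lists were chosen with earlier results of these data known. Names, gene order and pseudogenes come from RefSeq WBcel235, and exons, coding length and overlaps from the Ensembl annotation.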

Additional observations from a re-analysis of the deposited data

How the results depend on the processing

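No paired analysis was possible because each group had 1 library, and leaving out a library leaves no comparison. With a pseudocount of 0.1 FPKM, 20 members instead of 9 were at least 2-fold lower in dcr-1 RNAi than in mock. A pseudocount of 5 FPKM left 1 higher and 4 lower members in dcr-1 RNAi, 5 higher and 2 lower in drsh-1 RNAi, and 1 higher and 9 lower in dcr-1 RNAi against drsh-1 RNAi, since it pulls the ratios of low genes towards 0. Median centring and a common upper quartile each gave 16 lower members in dcr-1 RNAi. With at least 8 FPKM in mock, an alternative chosen after seeing the data that leaves fewer genes, 0 members were higher in dcr-1 RNAi, 1 was higher in drsh-1 RNAi, and 0 were higher and 5 lower in the direct comparison. Of all listed genes at 10 FPKM or more in mock, 4.99%, 0.83% and 3.48% were as far higher in the same comparisons, and 6.14% as far lower in the direct one. The fbxb medians ranged from -0.85 to -0.26 in dcr-1 RNAi and from -1.14 to -0.48 in the direct comparison under these alternatives. In drsh-1 RNAi the fbxb median was 0.54 with a pseudocount of 0.1 FPKM and 0.26 with 5 FPKM, and it was -0.27 with at least 8 FPKM in mock; the cause was not tested. The fbxa median in dcr-1 RNAi was -0.05 after centring, against 0.01 as deposited. Of 75 ratios past 2-fold among the members named by rule and the genes of the lists, 75 stayed past it after rescaling and 48 with a pseudocount of 5 FPKM, with 0 changes of sign. Members named only for being past 2-fold or as neighbours in runs were not in this check. Nor were the flanking, sdz and btb genes other than sdz-28. Depth is unknown, so how far counting error limits the low members cannot be stated.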

Other observations

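Genes named sdz, for SKN-1-dependent zygotic transcripts, and genes named btb, which encode BTB domain proteins, lie next to several fbxb genes in the RefSeq order and were looked at after their values were seen. Of 26 listed genes that flank an fbxb member and are not members, 3 were at least 2-fold higher in drsh-1 RNAi than in mock and 0 lower, with a median log2 ratio of 0.08. The 3 were sdz-9 (1.73), btb-8 (1.05) and sdz-11 (1.03). Of all listed genes, 1.91% were as far higher. sdz-9, next to fbxb-111, was at 3.68 FPKM in dcr-1 RNAi, 15.9 FPKM in drsh-1 RNAi and 4.08 FPKM in mock. btb-8, next to fbxb-11, was at 2.99 FPKM in dcr-1 RNAi, 10.3 FPKM in drsh-1 RNAi and 4.44 FPKM in mock. The other flanking genes were within 2-fold of mock in drsh-1 RNAi. In dcr-1 RNAi against mock, 1 of 21 was at least 2-fold higher and 1 lower, where 6.71% and 6.53% of all listed genes were. In dcr-1 RNAi against drsh-1 RNAi, 6 of 20 were at least 2-fold lower and 0 higher, where 5.78% of all genes compared were lower, although their median was 0.13. The 6 were hex-3, sdz-9, sdz-11, btb-8, F45D11.5 and C08F1.6, so that ratios in this direction were also found outside the fbxb family.

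Over the whole sdz group, all 15 listed genes were above mock in drsh-1 RNAi, 7 by 2-fold or more, and their median was 0.92. Of all listed genes, 50.4% were above mock there and 1.91% at least 2-fold higher. Most sdz genes were under 5 FPKM in mock, where a 2-fold lower value cannot be listed. The 11 sdz genes listed for dcr-1 RNAi had a median of -0.46 against mock, with 2 at least 2-fold higher and 1 lower. Of all listed genes, 6.71% were as far higher and 6.53% as far lower in dcr-1 RNAi. sdz-6 was the 1 gene of these 11 that was higher in dcr-1 RNAi than in drsh-1 RNAi, at 39.5 FPKM in dcr-1 RNAi, 9.60 FPKM in drsh-1 RNAi and 4.16 FPKM in mock. Of the 15 listed btb genes 3 were at least 2-fold higher in drsh-1 RNAi and 0 lower, with a median of 0.02, and of the 14 listed for dcr-1 RNAi 2 were lower and 0 higher. sdz-28 is also 1 of the early zygotic markers.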
